A study of Mus musculus with 4 samples.

Results

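The 9 genes described here belong to the interleukin-1 (IL-1) system: the cytokines *Il1a*, *Il1b* and *Il18*, the inhibitors *Il1rn*, *Il1r2* and *Il18bp*, and the inflammasome parts *Nlrp3*, *Casp1* and *Casp4*. They were chosen by symbol from the gene lists of both deposited matrices, which hold 32285 and 31053 genes, and all 9 were found in each. Their levels were followed across monocyte, macrophage, dendritic cell (DC), plasmacytoid DC (pDC), NK cell and T cell classes of B16 tumors, and between cells with and without fluorescent tumor protein.

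The study asked which tumor-infiltrating leukocytes (TILs) take up material from tumor cells. Wild-type C57BL/6 mice received B16-F10 melanoma cells under the skin, from a single bright clone that makes ZsGreen (ZsG), a soluble green fluorescent protein of the cytoplasm, when doxycycline is given. All mice drank doxycycline before the tumors were taken on day 8, and ZsG-negative and ZsG-positive TILs were sorted apart, once as all CD45-positive cells (CD45 sort) and once as CD45-positive, TCRb-positive cells (T cell sort). Each of these 4 groups is 1 droplet library of 3' transcript ends, and the sources used here give neither the number of mice or tumors pooled nor their age. By the study's own account, the positive gate of the CD45 sort took bright cells, and most lymphocytes with ZsG were collected in its negative gate. With 1 library per group there is no spread between mice and no test: values are given with 95% intervals in square brackets, which cover counting error only.

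IL-1 alpha and IL-1 beta act through the same receptor and switch on NF-kB, while IL-18 has a receptor of its own on NK and T cells. IL-1 beta and IL-18 are made as inactive precursors: the sensor NLRP3 gathers an inflammasome in which caspase-1 cuts them, and caspase-4 (also called caspase-11 in mice) starts a related pathway from bacterial lipopolysaccharide. The system is held back by the receptor antagonist (*Il1rn*), which occupies the IL-1 receptor without signaling, by the decoy receptor IL-1R2, which binds IL-1 without signaling, and by the IL-18 binding protein (*Il18bp*). In tumors the myeloid cells are a well-known source of IL-1.

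On GRCm38 (mm10), *Il1a* (ENSMUSG00000027399) lies at chr2:129299610-129309972 and *Il1b* (ENSMUSG00000027398) at chr2:129364570-129371139, both on the minus strand, with *Il1rn* (ENSMUSG00000026981) on the plus strand of the same chromosome at chr2:24336853-24351494. *Casp1* (ENSMUSG00000025888) at chr9:5298517-5307265 and *Casp4* (ENSMUSG00000033538) at chr9:5308828-5336783 are neighbours on the plus strand, and *Il18* (ENSMUSG00000039217) lies at chr9:50554827-50581840 on the same strand. *Il1r2* (ENSMUSG00000026073) is at chr1:40074079-40125231 on the plus strand, *Il18bp* (ENSMUSG00000070427) at chr7:102014885-102018690 on the minus strand, and *Nlrp3* (ENSMUSG00000032691) at chr11:59541568-59566956 on the plus strand. All 9 are protein-coding. The annotation places other genes over 5 of them: Gm37347 (same strand) and Gm16894 over *Il1r2*, Gm14023 over *Il1a*, Il1bos over *Il1b*, Numa1 over *Il18bp*, and Bco2 and Tex12 over *Il18*. All of these but Gm37347 lie on the strand opposite to the member, so counting by strand tells their reads apart. The sources at hand do not state the strand setting of the authors' counts.

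Promoter sequences (RefSeq, GRCm38.p6, 250 bases before each start) were matched for all 9 genes, with 13 promoters in all. They were searched on both strands for a pair of NF-kB forms, the C/EBP letters TTGCNNAA, the AP-1 letters TGANTCA, the interferon-stimulated response element and the TATA box (TATAAA). Of the members' 13 promoters, 3 held the first NF-kB form, 2 the second, 1 the C/EBP, 2 the AP-1, 0 the interferon and 3 the TATA letters. The 2 *Casp4* promoters, whose starts lie 11 bases apart, overlap and hold the same sites, so that they count 2 times for each NF-kB form. Over all 32851 promoters the shares were 1.41%, 1.63%, 9.56%, 6.75%, 2.98% and 12.4%. The following 3 are shown since they belong to the neighbouring cytokine genes and to the member with the most matches. Capitals mark the matches: an AP-1 and a TATA box in *Il1a* (chr2:129309973-129310222, minus strand), a TATA box in *Il1b* (chr2:129371140-129371389, minus strand), and in *Casp4* (chr9:5308599-5308848, plus strand) a pair of NF-kB letters, the upstream one overlapping a match to the second form. A match describes the letters only.
Il1a: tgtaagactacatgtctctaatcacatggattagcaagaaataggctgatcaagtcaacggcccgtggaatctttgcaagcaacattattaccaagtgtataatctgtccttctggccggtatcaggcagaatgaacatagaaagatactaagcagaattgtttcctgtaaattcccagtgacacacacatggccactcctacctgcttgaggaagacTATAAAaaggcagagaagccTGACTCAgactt
Il1b: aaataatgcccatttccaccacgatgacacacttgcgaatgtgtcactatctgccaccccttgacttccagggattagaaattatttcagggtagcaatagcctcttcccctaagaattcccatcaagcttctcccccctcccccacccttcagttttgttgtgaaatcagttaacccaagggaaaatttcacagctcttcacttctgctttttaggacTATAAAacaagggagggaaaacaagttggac
Casp4: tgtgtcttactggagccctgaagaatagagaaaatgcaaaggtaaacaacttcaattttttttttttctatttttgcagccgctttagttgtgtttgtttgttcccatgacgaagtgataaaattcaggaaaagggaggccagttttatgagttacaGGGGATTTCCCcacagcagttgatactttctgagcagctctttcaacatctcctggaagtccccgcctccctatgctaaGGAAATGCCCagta

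Both matrices count unique molecular identifiers (UMIs), 1 for each RNA molecule captured. Levels are UMIs of a gene scaled to a common total of the same cells (CPM, counts per 1000000 UMIs), and a log2 ratio of 1.00 is a doubling. The libraries held 1136 to 5437 barcodes and 10030971 to 56510578 UMIs, of which 948 to 4698 cells passed the study's filters, and kept cells had medians of 5769.5 (CD45 sort, ZsG-negative), 9928 (CD45, ZsG-positive), 6634 (T cell sort, ZsG-negative) and 8180 UMIs (T cell sort, ZsG-positive). Both libraries of the CD45 sort shared 6 barcodes, and those of the T cell sort 1. The matrix headers give different software versions, 7.0.0 for the CD45 sort and 6.1.2 for the T cell sort, and the gene lists differ. The part of this in differences between the sorts was not tested. Cells were clustered without the 9 genes and named "-like" from marker lists. The gates held different cells: the CD45 sort had 2503 NK cell-like and 1475 T cell-like ZsG-negative cells against 22 and 116 ZsG-positive ones, but 4 macrophage-like ZsG-negative cells against 2329. Monocyte-like cells numbered 66 and 601, non-classical monocyte-like cells 168 and 26, DC1-like cells 27 and 77, DC2-like cells 65 and 226, mature DC-like cells 12 and 52, and pDC-like cells 154 and 10. The T cell sort was not pure by its RNA: T cells, here cells past a limit for CD3 transcripts in lymphoid clusters, were 648 of 948 and 733 of 1879, and the rest included 89 and 440 pDC-like, 27 and 62 monocyte-like and 55 and 191 macrophage-like cells. The labels of this sort contradict each other on the order of its libraries, and the larger one was taken as ZsG-positive.

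In the CD45 sort, 8 of the 9 genes were highest in a monocyte-like or macrophage-like class, and the same 8 were so in the T cell sort. The share of all genes that are highest in these classes was not computed, so the count describes these genes only. *Il1r2* was the exception, with its highest level in DC2-like cells in both sorts, and *Il18bp* alone was highest in macrophage-like rather than monocyte-like cells. The plot of levels by class shows the 9 genes side by side.

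**Figure D1:**
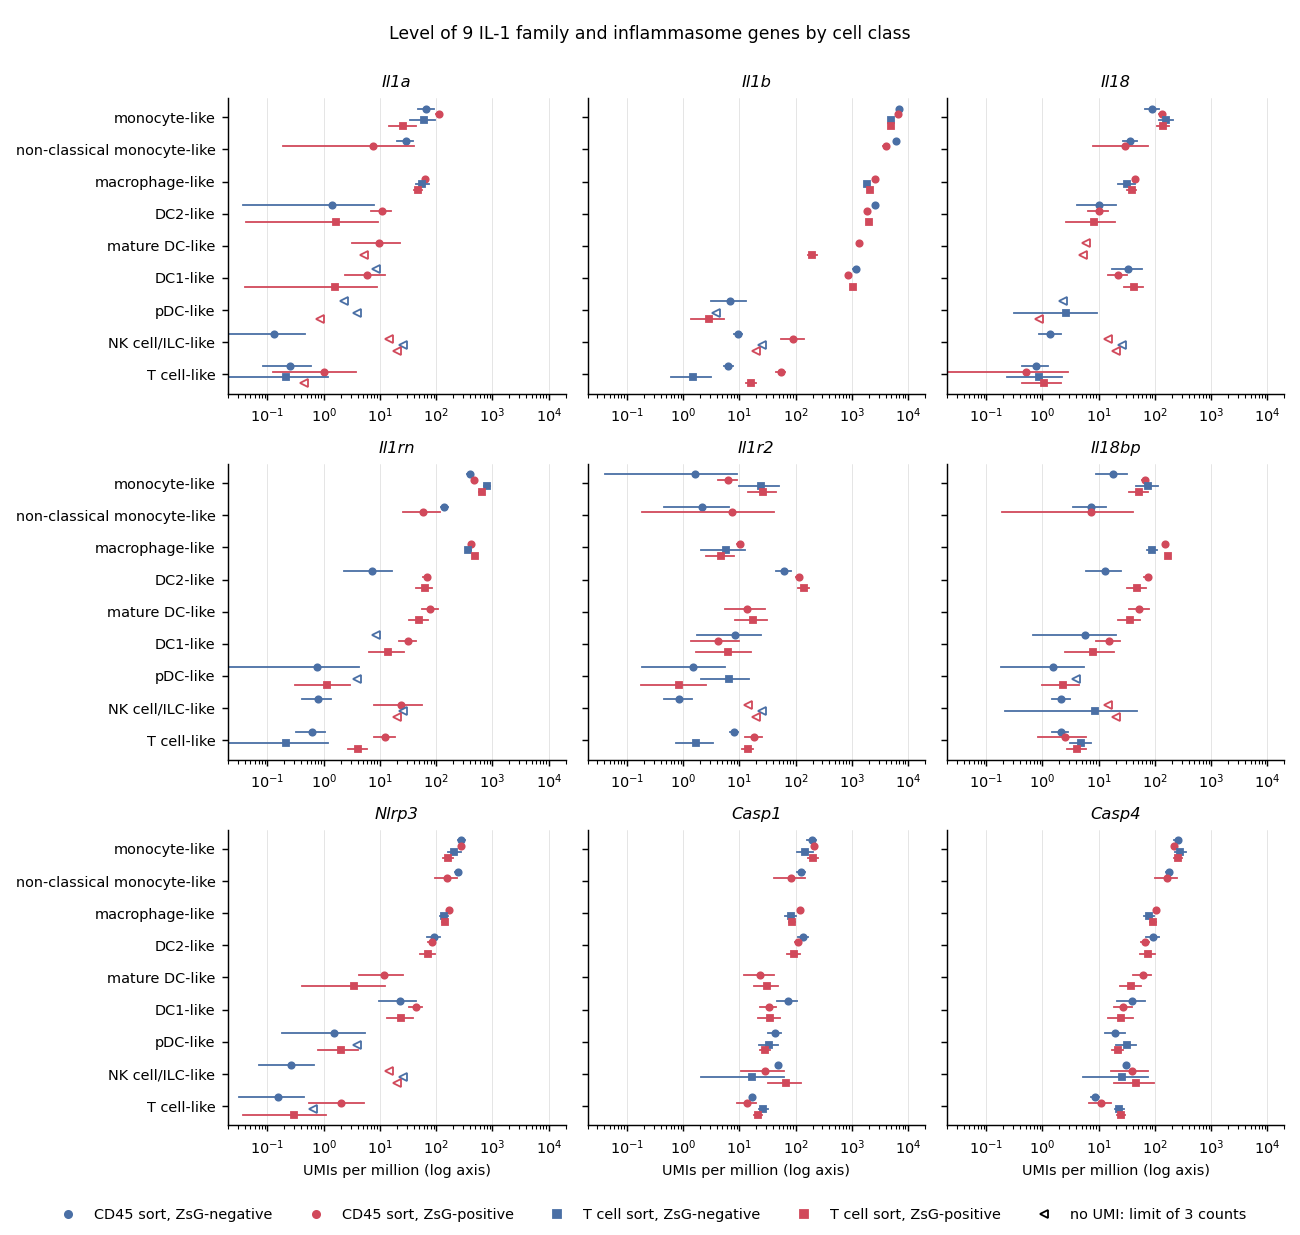
Level of each gene (CPM, log axis) in each cell class, with 95% counting intervals; circles are the CD45 sort and squares the T cell sort, blue ZsG-negative and red ZsG-positive, and open triangles mark the limit of 3 counts where no UMI was found. *Il1b* runs from 6920 in monocyte-like to 6.40 in T cell-like ZsG-negative cells, while *Il1r2* peaks in DC2-like cells.

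*Il1b* was the most widely found cytokine of the system. In monocyte-like cells of the CD45 sort it stood at 6920 CPM [6714, 7131] in the ZsG-negative and 6731 CPM [6653, 6811] in the ZsG-positive gate, with UMIs in 100% and 97.7% of cells. Those of the T cell sort held 4955 [4700, 5221] and 4929 CPM [4742, 5121]. Non-classical monocyte-like cells, which patrol vessels, had 6144 and 3975 CPM. Macrophage-like cells followed with 2590 CPM in the CD45 sort (91.5% of cells) and 1852 and 2134 CPM in the T cell sort. DC2-like cells, the conventional DCs that present to CD4 T cells, reached 2584 and 1860 CPM, close to macrophage-like cells, and DC1-like cells, which cross-present to CD8 T cells, 1181 and 838 CPM. Mature DC-like cells were at 1361 CPM in the CD45 sort but 198 CPM in the T cell sort, where 37.7% held a UMI. Lymphoid and pDC-like ZsG-negative cells of the CD45 sort were at the lower end: 9.501 CPM in NK cell-like, 6.82 CPM in pDC-like and 6.40 CPM in T cell-like cells. UMIs were seen in 5.19%, 5.84% and 7.53% of them at median depths of 4581, 8370 and 6823 UMIs. The source of these UMIs was not tested, and no expression is read from them.

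*Il1a*, which acts without cleavage by caspase-1, was far scarcer and lay in the same myeloid classes. Monocyte-like cells of the CD45 sort had 66.7 CPM [47.9, 90.5] and 110 CPM [100.3, 120.8], and macrophage-like cells 64.0 CPM. In the T cell sort monocyte-like cells had 59.9 and 26.2 CPM and macrophage-like cells 56.8 and 47.8 CPM. DCs held little: the highest DC value was 10.8 CPM, in ZsG-positive DC2-like cells. No UMI was found in ZsG-negative pDC-like cells of the CD45 sort or in pDC-like cells of the T cell sort, and 1 in the 10 ZsG-positive ones of the CD45 sort. Among 733 ZsG-positive T cells of the T cell sort 0 had one, which allows a level of up to 0.453 CPM.

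*Il18*, the other cytokine that caspase-1 cuts, was also higher in monocyte-like than in macrophage-like cells. Monocyte-like cells held 89.5 CPM [67.4, 116.5] and 131 CPM [119.9, 142.2] in the CD45 sort and 159 and 141 CPM in the T cell sort. Macrophage-like cells held 45.0 CPM, and 32.2 and 38.6 CPM. Among DCs, DC1-like cells carried the most, with 33.7 and 22.2 CPM in the CD45 sort and 42.4 CPM in ZsG-positive cells of the T cell sort. Mature DC-like cells had no *Il18* UMI in 52 and 53 cells, which allows levels of up to 5.88 and 5.16 CPM, below those of DC1-like cells.

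Among the inhibitors, *Il1rn* followed *Il1a* and *Il1b* into monocyte-like and macrophage-like cells. It stood at 405 and 465 CPM in monocyte-like cells of the CD45 sort, at 807 and 645 CPM in those of the T cell sort, and at 414 CPM in macrophage-like cells of the CD45 sort and 370 and 486 CPM in those of the T cell sort. Non-classical monocyte-like cells had 139 and 59.1 CPM, so they paired a high *Il1b* level with a low *Il1rn* level. Mature DC-like cells had 78.4 CPM, DC2-like cells 7.16 and 67.9 CPM, and ZsG-negative T and NK cell-like cells under 1 CPM.

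*Il1r2*, the decoy receptor, had another distribution. DC2-like cells held 61.6 CPM [44.6, 83.0] and 113 CPM [100.3, 127.6] in the CD45 sort and 140 CPM [111.4, 172.5] in ZsG-positive cells of the T cell sort, with UMIs in 32.3%, 44.2% and 45.0% of cells. In the CD45 sort T cell-like cells had 8.09 and 17.9 CPM, beside 8.41 and 4.26 CPM in DC1-like, 10.2 CPM in macrophage-like, 13.7 CPM in mature DC-like and 1.63 and 6.27 CPM in monocyte-like cells. NK cell-like cells were at 0.852 CPM. T cell-like cells were 31.4% of the cells of the ZsG-negative CD45 library. They carried 66.9% of its *Il1r2* UMIs, while for *Il1b* they carried 0.723%. NK cell-like cells, 53.3% of the cells, carried 5.51% of the *Il1r2* UMIs.

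*Il18bp*, which neutralizes IL-18, was highest in macrophage-like cells. Macrophage-like cells had 153 CPM [148.6, 157.6] in the CD45 sort, with UMIs in 68.1% of cells, and 88.1 and 170 CPM in the T cell sort. ZsG-positive DC2-like cells had 74.1 CPM and mature DC-like cells 52.9 CPM. Monocyte-like cells ranged from 17.9 to 74.0 CPM over the 4 libraries and non-classical ones were at 7.38 and 7.39 CPM.

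The inflammasome genes differed in how far they reached beyond myeloid cells. *Nlrp3* was found mainly in monocyte-like (280 and 272 CPM in the CD45 sort, 211 and 165 CPM in the T cell sort), non-classical (241 and 155 CPM), macrophage-like (167 CPM, and 136 and 141 CPM) and DC2-like cells (90.2 and 82.8 CPM), and stood at 0.154 CPM in ZsG-negative T cell-like and 0.262 CPM in NK cell-like cells. *Casp1* was highest in monocyte-like cells too (192 and 210 CPM, 148 and 206 CPM), but NK cell-like cells had 48.0 CPM, pDC-like cells 42.4 CPM and T cell-like cells 17.0 CPM. *Casp4* went the same way, with 252 and 221 CPM in monocyte-like, 30.9 CPM in NK cell-like, 19.7 CPM in pDC-like and 8.604 CPM in T cell-like cells. NK cell-like cells were 53.3% of the cells of the ZsG-negative CD45 library. They supplied 43.9% of its *Casp1* and 38.6% of its *Casp4* UMIs, less than their share of cells, but 0.584% of its *Nlrp3* UMIs.

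Within lymphoid cells the caspase levels differed between clusters. In the T cell sort the cluster led by *Ramp3*, *Slfn5* and *Cd40lg*, which also holds *Ifit3* and *Rsad2*, had 106 CPM of *Casp1* and 113 CPM of *Casp4* in 106 ZsG-negative cells, and 59.8 and 73.4 CPM in 89 ZsG-positive ones. The cluster led by *Dapl1* and *Tcf7*, a factor of naive and memory T cells, had 1 UMI of each in 95 ZsG-negative cells (1.63 CPM), and in 44 ZsG-positive ones 4 UMIs of *Casp1* (16.2 CPM) and none of *Casp4*. Among NK cell-like clusters of the CD45 sort, the one led by *Ifit3* and *Ifit1* had the highest *Casp4* level, 96.1 CPM [70.1, 128.6], beside 20.5 to 39.9 CPM in the others. Its *Casp1* level, 61.9 CPM [41.5, 88.9], overlapped those of most others (34.4 to 57.0 CPM).

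The first gate comparison asked whether myeloid cells of the same class differed with ZsG. A gene was counted as past 2-fold only if it had at least 20 UMIs over both gates. A gene scarce in 1 gate could thus enter through the other gate alone. In monocyte-like cells of the CD45 sort (601 and 66 cells), 2 of 9 members were more than 2-fold higher in ZsG-positive cells and 0 lower, beside 8.28% and 3.99% of the 8072 genes with enough UMIs. *Il18bp* was one of them: 17.9 CPM [8.93, 32.0] in the ZsG-negative and 65.6 CPM [58.0, 73.9] in the ZsG-positive gate, a log2 ratio of 1.87 [1.01, 2.89]. The intervals of the gates do not overlap. *Il1r2* rested on 1 and 26 UMIs, and its ratio of 1.95 [-0.66, 7.30] cannot be told from 0. *Il1a* and *Il18* were higher by less than 2-fold, with ratios of 0.72 [0.26, 1.22] and 0.55 [0.15, 0.97]. *Il1b* itself was level at -0.04 [-0.09, 0.01], as was *Nlrp3* at -0.04 [-0.27, 0.20]. The inflammasome genes *Casp1* (0.13 [-0.15, 0.42]) and *Casp4* (-0.19 [-0.43, 0.07]) lay within 2-fold as well. Macrophage marker sums were alike in both gates, 2336 and 2173 CPM.

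The monocyte-like cells of the T cell sort (62 and 27 cells) did not repeat the *Il18bp* and *Il1a* differences. There *Il18bp* was 52.5 CPM against 74.0 CPM, a ratio of -0.50 [-1.36, 0.39], and *Il1a* 26.2 CPM against 59.9 CPM, a ratio of -1.19 [-2.32, -0.08], the only one of 9 members past 2-fold, beside 4.88% of 4220 genes that were higher and 3.39% that were lower. *Il1b* was again level at -0.01 [-0.10, 0.09]. Leaving out 1 ZsG-positive cell with 10 or more *S100a9* UMIs, a neutrophil transcript, moved *Il1r2* from 26.2 to 22.7 CPM in this class. In macrophage-like cells of the T cell sort (191 and 55 cells), 0 of 8 members were more than 2-fold higher or lower, beside 3.4% and 1.69% of 8290 genes (5.09% in either direction). *Il18bp* had a ratio of 0.95 [0.63, 1.29], *Il1rn* of 0.39 [0.23, 0.56] and *Il1b* of 0.20 [0.13, 0.28], and *Il1r2*, with 13 and 6 UMIs, was not compared. The CD45 sort held too few ZsG-negative macrophage-like cells for this comparison.

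Non-classical monocyte-like cells of the CD45 sort (26 ZsG-positive and 168 ZsG-negative) ran lower in the positive gate. Of 7 members with enough UMIs 2 were more than 2-fold lower and 0 higher, beside 10.8% and 4.32% of 6155 genes (15.1% in either direction). *Il1rn* fell from 139 CPM [120.2, 160.8] to 59.1 CPM [25.5, 116.5], a log2 ratio of -1.24 [-2.47, -0.23] that rested on 8 UMIs and became 0.58 when the listed genes were allowed to shape the clusters. *Il1a* had 1 and 39 UMIs and a ratio of -1.96 [-7.30, 0.60]. *Il1b*, with 538 and 8329 UMIs, was lower by less than 2-fold at -0.63 [-0.76, -0.50]. These cells also had fewer UMIs each, with medians of 5369 and 8038, and the part of this in the values was not tested.

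**Figure D2:**
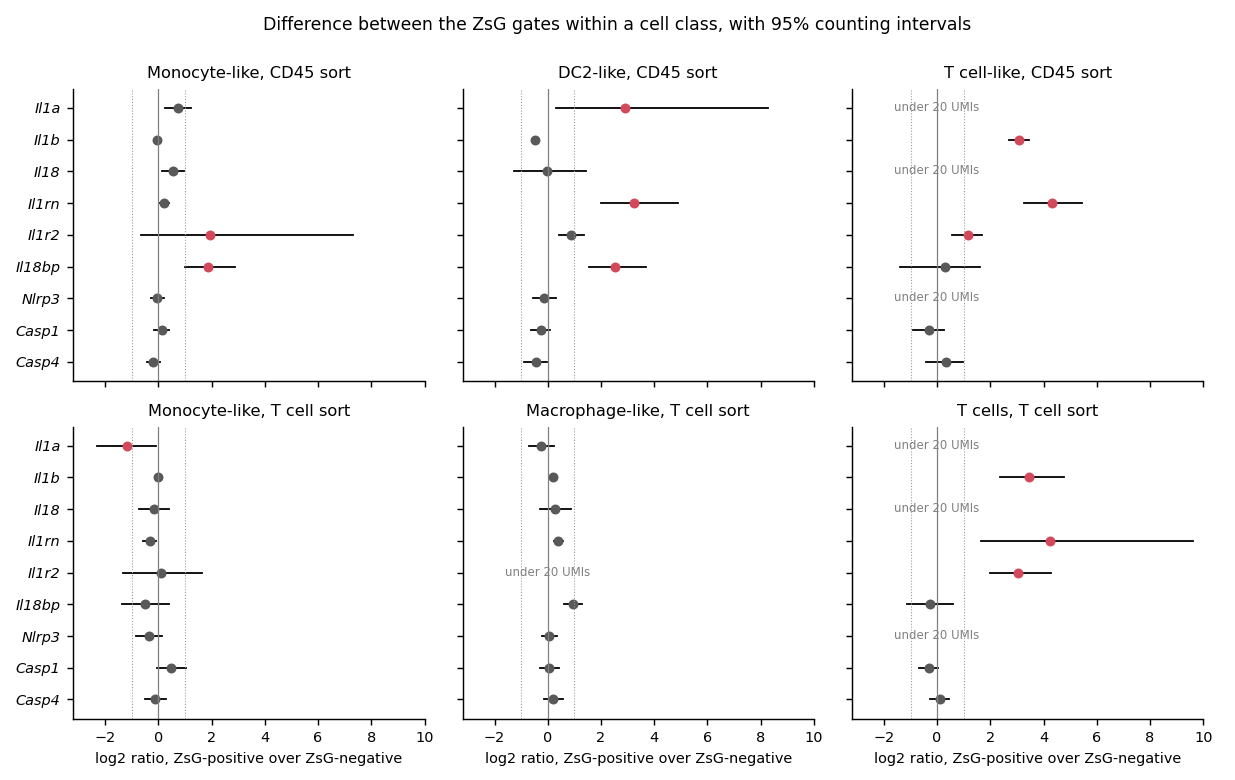
Log2 ratio of the level in ZsG-positive over ZsG-negative cells for each gene in 6 classes; points are ratios, bars 95% counting intervals, red points lie past 2-fold (dotted lines), and genes under 20 UMIs over both gates have no point. *Il1b* lies near 0 in monocyte-like cells of both sorts and at 3.09 and 3.44 in T cells.

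Macrophage-like cells were then set beside monocyte-like cells within the ZsG-positive gate, where both are well filled (2329 against 627 cells in the CD45 sort, classical and non-classical monocyte-like cells together). Of the 9 members 1 was more than 2-fold higher in macrophage-like cells and 3 were lower, beside 17.4% and 4.74% of 11364 genes. The median of the members was -0.74 and that of all genes 0.21. *Il1b* was lower with a ratio of -1.36 [-1.38, -1.34], *Il18* with -1.50 [-1.65, -1.36] and *Casp4* with -1.09 [-1.19, -0.98]. *Il18bp* was the one higher, at 1.26 [1.09, 1.44], and *Il1rn* barely moved at -0.13 [-0.19, -0.06]. In the T cell sort (191 against 62 cells) 1 member was higher and 5 lower, beside 19.7% and 8.99% of 7960 genes (28.7% in either direction). *Il1b*, *Il18*, *Casp4* and *Il18bp* passed 2-fold in the same direction there, at -1.21, -1.86, -1.51 and 1.70. *Casp1* (-1.27) and *Il1r2* (-2.46, from 13 and 14 UMIs) were past 2-fold in that sort alone, while *Il1r2* was 0.69 [0.12, 1.32] in the CD45 sort. *Il1a* was -0.74 in the CD45 and 0.86 in the T cell sort. Both sorts thus gave the same order for the cytokines that caspase-1 processes and for the IL-18 inhibitor, and opposite signs for *Il1a* and *Il1r2*.

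Macrophage-like cells were not uniform. The largest cluster of the CD45 sort (1184 cells, led by *Ly6i* and *Gbp2b* with MHC class II genes) had 3499 CPM of *Il1b*, and the cluster led by *Inhba* and *Nos2*, which also holds the hypoxia genes *Egln3*, *Hilpda* and *Vegfa* and the stress genes *Hspa1a* and *Hspa1b* (442 cells), 3141 CPM. The cluster led by *Pf4*, *Ccl8* and *Folr2*, genes of resident-type macrophages (444 cells), and the cycling one (259 cells) had less, 1382 and 1363 CPM. *Il1rn* did not follow that order: the *Inhba* cluster had the most, 760 CPM, above the 465 CPM of monocyte-like cells, with a log2 ratio of 0.71 [0.62, 0.80], while the others had 443, 363 and 195 CPM. The same cluster held the most *Il1a* among macrophage-like cells (123 CPM, beside 75.3, 39.9 and 27.9 CPM). In the T cell sort a small cluster with the same hypoxia genes (33 ZsG-positive cells) again led the macrophage-like cells in both genes, with 935 CPM of *Il1rn* and 170 CPM of *Il1a* against 465 and 42.3 CPM in the other cluster. *Il18bp* had yet another order, with its highest level, 203 CPM, in the *Pf4* cluster and its lowest, 84.9 CPM, in cycling cells, and *Il1r2* ran from 2.90 CPM in the *Pf4* cluster to 19.5 CPM in cycling cells. The clusters were made from these same cells, so these are descriptions.

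**Figure D3:**
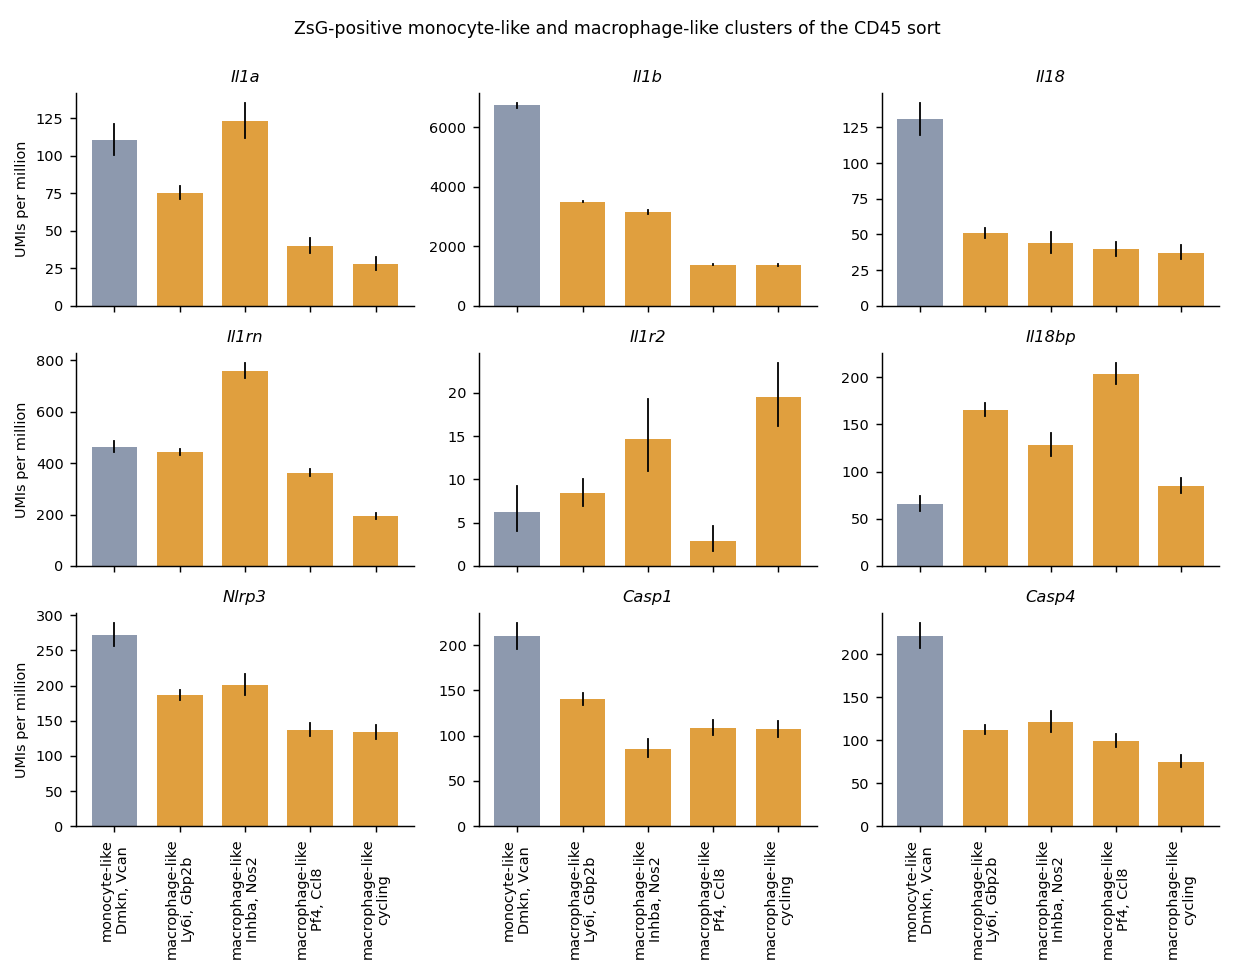
Level of each gene (CPM) in the ZsG-positive monocyte-like cluster (grey) and the macrophage-like clusters (orange) of the CD45 sort; bars are levels and lines 95% counting intervals. *Il1b* falls from 6731 to 1363 across the panel, whereas *Il1rn* is highest, at 760, in the cluster led by *Inhba* and *Nos2*.

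The balance of inhibitor and cytokine was described as the share of *Il1rn* in the UMIs of *Il1rn* and *Il1b* together, and of *Il18bp* in those of *Il18bp* and *Il18*. Counting of 3' ends does not scale with transcript length, but capture may differ between genes, so the shares are compared between classes only. *Il1rn* made up 5.53% [4.88, 6.24] in ZsG-negative and 6.46% [6.18, 6.74] in ZsG-positive monocyte-like cells of the CD45 sort, 2.22% and 1.47% in non-classical ones, and 13.8% [13.6, 14.0] in macrophage-like cells. In the T cell sort the share was 14.0% and 11.6% in monocyte-like and 16.7% and 18.5% in macrophage-like cells. Monocyte-like cells thus had higher values in that sort, but the matrices of the sorts were made with different software versions. The part of this was not tested. *Il18bp* made up 16.7% [8.62, 27.9] and 33.4% [30.2, 36.8] in monocyte-like and 77.3% [76.2, 78.4] in macrophage-like cells of the CD45 sort, and 31.8%, 27.2%, 73.2% and 81.5% in those of the T cell sort. The shift from monocyte-like to macrophage-like cells was thus larger for the IL-18 pair than for the IL-1 pair. ZsG-positive DC2-like cells were at 88.2% in the CD45 sort and 85.3% in the T cell sort. In mature DC-like cells all 27 and 21 UMIs of the pair were *Il18bp*, while ZsG-positive DC1-like cells were at 40.9% [26.3, 56.8] and 15.6% [5.28, 32.8].

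**Figure D4:**
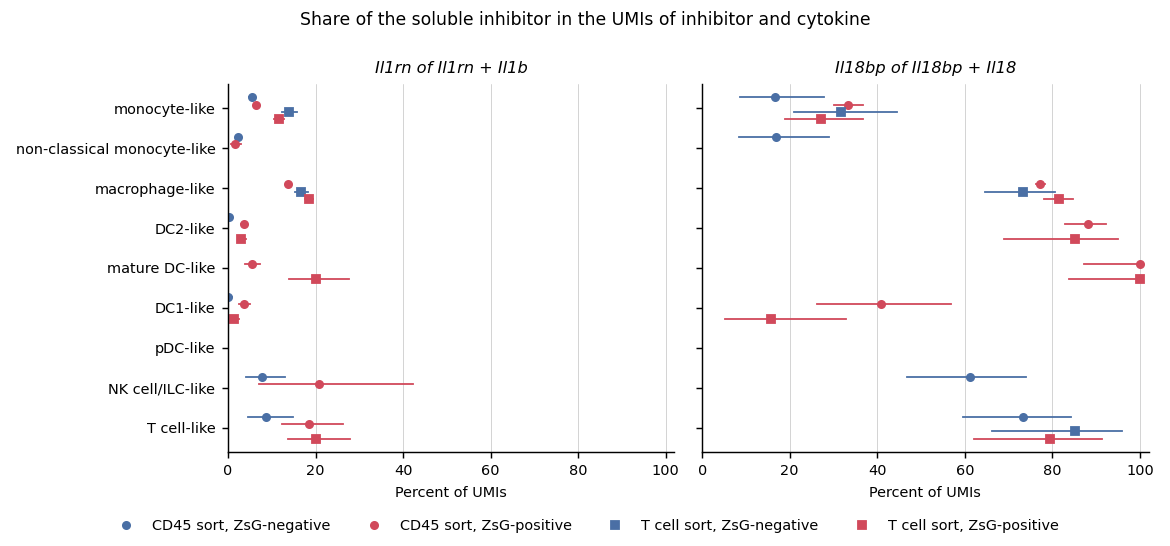
Share of the inhibitor in the UMIs of inhibitor and cytokine (percent) by class, with exact 95% intervals; circles are the CD45 and squares the T cell sort, blue ZsG-negative and red ZsG-positive. The *Il1rn* share is 6.46% in monocyte-like and 13.8% in macrophage-like ZsG-positive cells of the CD45 sort, and the *Il18bp* share rises from 33.4% to 77.3% between the same classes.

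DC classes were compared by gate in the CD45 sort. In DC2-like cells (226 ZsG-positive and 65 ZsG-negative) 3 of 9 members were more than 2-fold higher and 0 lower, beside 8.48% and 5.2% of 7632 genes. These 3 had under 20 UMIs in the ZsG-negative cells, so they met the minimum through the ZsG-positive ones. *Il1rn* rose from 7.16 CPM [2.33, 16.7] to 67.9 CPM [57.9, 79.1], with a log2 ratio of 3.24 [1.99, 4.89], and UMIs in 6.15% and 24.8% of cells (3.08% and 11.5% after thinning to 2000 UMIs per cell). *Il18bp* rose from 12.9 CPM [5.89, 24.5] to 74.1 CPM [63.6, 85.8], with a ratio of 2.52 [1.57, 3.67]. *Il1a* had 1 and 26 UMIs and a ratio of 2.91 [0.30, 8.27], while *Il1b* was lower, from 2584 to 1860 CPM, at -0.47 [-0.55, -0.39]. *Il1r2* was higher by less than 2-fold, 0.88 [0.41, 1.38]. The gates drew on different clusters, since 59 of the 65 ZsG-negative cells came from one led by *Cd209a* and 194 of the 226 ZsG-positive cells from one led by *Ifitm1* and *Ffar2*. Within the *Cd209a* cluster (32 and 59 cells) *Il1rn* was 46.7 CPM against 8.08 CPM from 11 and 5 UMIs, under the minimum for a ratio, whereas *Il1r2* was 29.7 CPM against 56.6 CPM, a ratio of -0.93 [-2.35, 0.26]. The higher *Il1r2* level of ZsG-positive DC2-like cells was thus not seen within that cluster.

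In DC1-like cells (77 and 27) 2 of 7 members were more than 2-fold higher and 1 lower, beside 9.24% and 4.15% of 6145 genes. *Il1rn* had no UMI in the ZsG-negative and 37 in the ZsG-positive cells, 31.5 CPM [22.2, 43.5], which against the limit of 3 counts is a log2 ratio of at least 1.91. *Il18bp* rested on 2 and 18 UMIs, with a ratio of 1.45 [-0.61, 4.60], and *Casp1* fell from 72.9 to 33.2 CPM, at -1.13 [-1.89, -0.36], a difference that was -0.01 with 10 principal components. The sum of 10 macrophage markers, among them *C1qa*, *Apoe* and *Mrc1*, moved with the gate in both classes: from 0 to 611 CPM in DC1-like cells, with 0 and 9 of 10 markers detected, and from 87.4 to 590 CPM in DC2-like cells, with 3 and 10 detected. *Il1rn* and *Il18bp* were abundant in macrophage-like cells, and the part of such RNA in these differences was not tested. Per 100 UMIs of those markers, *Il1rn* gave 11.5 [9.72, 13.5] in ZsG-positive DC2-like, 5.16 [3.60, 7.18] in DC1-like and 4.29 [4.21, 4.37] in macrophage-like cells.

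T cell-like cells in the CD45 sort (116 ZsG-positive and 1475 ZsG-negative) had 3 of 6 members more than 2-fold higher and 0 lower, beside 2.84% and 6.4% of 10957 genes. *Il1b* rose from 6.40 CPM [5.33, 7.63] to 54.4 CPM [44.5, 65.7], a log2 ratio of 3.09 [2.70, 3.47], with UMIs in 7.53% and 52.6% of cells, or 1.63% and 12.9% after thinning. *Il1rn* rose from 0.615 CPM [0.318, 1.07] to 12.3 CPM [7.89, 18.3], a ratio of 4.32 [3.27, 5.46]. *Il1r2* rose from 8.09 CPM [6.88, 9.46] to 17.9 CPM [12.5, 25.0], a ratio of 1.15 [0.58, 1.69]. Of its 35 ZsG-positive UMIs, 16 came from a cluster of 25 ZsG-positive cells, few of which held any. The interval treats UMIs as independent and does not cover such clumping, so this call rests on few cells. The caspases, found at similar levels in both gates, did not pass 2-fold: *Casp1* was -0.30 [-0.92, 0.27] and *Casp4* 0.32 [-0.41, 0.98]. NK cell-like cells had 22 ZsG-positive cells only, with *Il1b* at 91.1 CPM against 9.501 CPM, a ratio of 3.26 [2.49, 3.96], as 1 of 5 members past 2-fold, which was higher, beside 11.0% of 10605 genes higher and 8.57% lower (19.6% in either direction). The other inflammasome and inhibitor genes had too few UMIs in the ZsG-positive cells to be compared, apart from the caspases, which lay within 2-fold.

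In both lymphoid classes macrophage marker sums were higher in the ZsG-positive gate, as *Il1b* was. The sum of the 10 macrophage markers was 11.5 CPM in ZsG-negative and 157.96 CPM in ZsG-positive T cell-like cells, and 7.14 and 177.5 CPM in NK cell-like cells, with 9 of 10 markers detected in both T cell gates (*Mertk* at 0), 10 in ZsG-negative NK cell-like cells and 7 in ZsG-positive ones (*Mrc1*, *Mertk* and *Adgre1* at 0). Per 100 marker UMIs *Il1b* gave 34.4 [27.3, 43.0] in ZsG-positive T cell-like, 51.4 [27.9, 91.6] in ZsG-positive NK cell-like, 26.8 [26.6, 27.0] in macrophage-like and 310 [302.5, 317.3] in ZsG-positive monocyte-like cells. The proportion in lymphoid cells thus lay above that of macrophage-like cells, if only just by its lower bound, and far below that of monocyte-like cells. Macrophage-like cells were named by these 10 markers, so a higher proportion in monocyte-like cells was set in part by the naming. *Il1rn* gave 7.79 [4.92, 11.8], 4.29 and 21.4 in ZsG-positive T cell-like, macrophage-like and monocyte-like cells. *Il1r2* differed from both genes: it gave 11.4 [7.77, 16.2] in ZsG-positive T cell-like and 0.106 [0.0942, 0.118] in macrophage-like cells, and in an unnamed cluster of 80 ZsG-positive T cells with 1016 CPM of macrophage markers 0 *Il1r2* UMIs were found. In another unnamed cluster, of 21 ZsG-positive T cells led by *Foxp3* and *Tnfrsf4* with 1734 CPM of those markers, *Il1r2* stood at 46.1 CPM from 28 UMIs, or 2.66 [1.76, 3.86] per 100 marker UMIs. Whether the *Il1b* and *Il1rn* differences come from macrophage RNA was not tested.

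**Figure D5:**
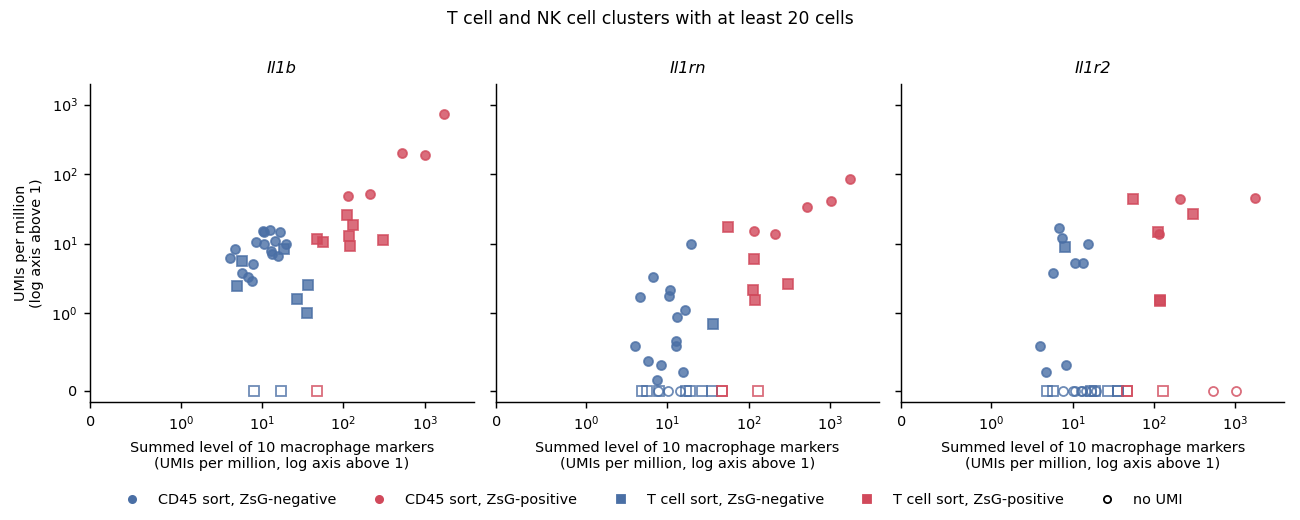
Level of *Il1b*, *Il1rn* and *Il1r2* against the summed level of 10 macrophage markers (both in CPM, log axes above 1) in T and NK cell clusters of at least 20 cells; circles are the CD45 and squares the T cell sort, blue ZsG-negative and red ZsG-positive, open symbols no UMI. The clusters with the most marker RNA, up to 1734, also hold the most *Il1b*, up to 729. *Il1r2* is absent from 2 of the 3 clusters with the highest sums but present in the cluster at 1734.

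Unnamed T and NK clusters with macrophage transcripts were left out of these classes. With them returned (217 and 1538 T cell-like, 113 and 2514 NK cell-like cells) *Il1b* was 212 CPM against 34.4 CPM in T cell-like cells, a ratio of 2.62 [2.46, 2.78], and 4.02 [3.61, 4.42] in NK cell-like cells, and *Il1r2* in T cell-like cells was 1.42 [0.98, 1.85]. By cluster, the *Il1r2* difference in the CD45 sort lay in the cells led by *Cd200*, *Ccl4* and *Ifng*, with 9.94 CPM in 212 ZsG-negative and 44.2 CPM in 25 ZsG-positive cells, a ratio of 2.15 [1.22, 3.02], although only 8.00% of those 25 cells held its 16 UMIs. The cycling cluster led by *Ccl1* (47 and 200 cells) had 13.7 and 12.2 CPM, a ratio of 0.17 [-0.67, 0.93], beside an *Il1b* ratio of 4.05 [3.33, 4.83].

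The T cell sort gave a second look at T cells, from other libraries. In 733 ZsG-positive and 648 ZsG-negative T cells, 3 of 6 members were more than 2-fold higher and 0 lower, beside 4.62% and 1.8% of 10006 genes. They were the same 3 genes as in the CD45 sort. Each had under 20 UMIs in the ZsG-negative cells, so it met the minimum through the ZsG-positive ones. *Il1b* rose from 1.49 CPM [0.5999, 3.07] to 16.2 CPM [13.2, 19.5], a ratio of 3.44 [2.34, 4.79], with UMIs in 0.926% and 6.003% of cells (0.467% and 2.65% thinned, with 5 and 17 shallower cells left out). *Il1rn* rose from 0.213 to 4.08 CPM on 1 and 27 UMIs, a ratio of 4.26 [1.66, 9.61]. *Il1r2* rose from 1.71 CPM [0.736, 3.36] to 14.0 CPM [11.3, 17.2], a ratio of 3.04 [2.00, 4.30], on 8 and 93 UMIs and in 0.617% and 4.91% of cells (0.156% and 1.26% thinned). The 93 UMIs were thus clumped in few of the 733 cells, which the intervals do not cover. The gates also held the T cell clusters in different proportions, described below. After thinning *Il1b* stayed past 2-fold at 2.90, while *Il1rn* and *Il1r2* had too few UMIs left to be compared. Here too *Casp1* (-0.32 [-0.68, 0.04]), *Casp4* (0.09 [-0.27, 0.46]) and *Il18bp* (-0.27 [-1.12, 0.60]) stayed within 2-fold.

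Macrophage marker sums in these T cells were 21.7 and 140 CPM, with 8 and 10 of 10 markers detected. Per 100 marker UMIs *Il1b* gave 11.6 [9.38, 14.1] in ZsG-positive T cells and 19.4 [18.9, 19.98] in ZsG-positive macrophage-like cells, *Il1rn* 2.92 [1.91, 4.28] and 4.42 [4.18, 4.67], and *Il1r2* 10.1 [8.03, 12.5] and 0.0435 [0.0232, 0.0744]. So *Il1b* lay below the proportion of macrophage-like cells in this sort and *Il1rn* did not exceed it, while *Il1r2* lay far above it. The part of macrophage RNA in these differences was not tested here either. *Il1r2* was spread unevenly over T cell clusters. The cluster led by *Foxp3* and *Areg*, the factor of regulatory T cells and a gene they use in tissue repair, had 43.5 CPM [28.2, 64.2] in 93 ZsG-positive cells. It had no UMI in 30 ZsG-negative ones. Against the limit of 3 counts its ratio was 1.33, and its 95% interval reached down to 0.92. The cluster led by *Ifng* and *Xcl1* had 27.2 CPM in 76 and no UMI in 33 cells. Its ratio against that limit was 1.90, with an interval down to 1.51. In cycling T cells *Il1r2* was 14.6 CPM against 9.07 CPM, 0.69 [-0.45, 2.01]. No *Il1r2* UMI was found in either gate of the cluster led by *Dapl1* and *Tcf7* (44 ZsG-positive and 95 ZsG-negative cells). The same held for the cluster led by *Ramp3* and *Cd40lg* (89 and 106 cells). Clusters with *Il1r2* thus made up more of the ZsG-positive T cells, and the part of this in the pooled *Il1r2* ratio was not tested. *Il1b* was highest in cycling T cells, with 26.3 CPM in 120 ZsG-positive cells and no UMI in 42 ZsG-negative ones. Against the limit of 3 counts this is a ratio of 2.95, with an interval down to 2.61. Among pDC-like cells of the T cell sort (440 and 89) 2 members could be compared and 0 were more than 2-fold higher or lower, beside 3.16% and 1.97% of 8430 genes (5.12% in either direction): *Casp1* was -0.22 [-0.86, 0.46] and *Casp4* -0.52 [-1.196, 0.21]. NK cell-like cells of that sort (35 and 21) held no *Il1b* UMI in either gate, and no member reached 20 UMIs over both gates, where 7.17% of 1924 other genes passed 2-fold.

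Single cells varied widely in *Il1b*. At 2000 UMIs per cell, ZsG-positive monocyte-like cells of the CD45 sort had a median of 13 *Il1b* UMIs, with the 10th and 90th percentiles at 2 and 25, and ZsG-negative ones a median of 11 (3 and 24). Macrophage-like cells had a median of 4 (0 and 14), and 1 of them reached 71. The top 10% of macrophage-like cells held 34.2% of their *Il1b* UMIs, beside 23.2% in ZsG-positive monocyte-like cells. In macrophage-like cells 3 of the 8 other members were found more often above the class's *Il1b* median than in the rest, with intervals that do not overlap: *Nlrp3* in 36.1% [33.2, 39.0] against 17.7% [15.6, 19.9], *Il1a* in 15.5% [13.4, 17.8] against 4.88% [3.75, 6.23] and *Il1rn* in 54.6% [51.5, 57.6] against 41.2% [38.5, 44.0]. The other 5 had overlapping intervals, among them *Casp1* (21.9% and 22.2%) and *Il18bp* (25.5% and 28.9%). In ZsG-positive monocyte-like cells *Nlrp3* differed in the same way (48.4% and 31.4%), while *Il1rn* did not (50.2% and 48.7%). Cells of a library are not replicates, and clusters with different levels are pooled here. The share of all genes that differ in this way was not computed, so nothing particular to the members is read from these counts.

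The genes most like *Il1b* across 12 class and gate groups of the CD45 sort, by Pearson's r of log2(CPM + 1) among 5409 genes, were *Nupr1* (0.991), *Wfdc17* (0.989), *Ptgs2* (0.987), *Tnfaip2* (0.986) and *Ifitm2* (0.9801). Most like *Il1rn* were *Cxcl2* (0.979), *Il1a* and *Cfb* (both 0.978), *Clec4d* (0.966) and *F10* (0.962), and most like *Il18* were *Flt1* (0.971), *Vcan* (0.957), *Rin2* (0.945), *Plod3* (0.944) and *Sod2* (0.941). The groups share libraries and fall into myeloid and lymphoid ones, so high values are common.

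The other IL-1 family and inflammasome genes were taken from a list of 36. In monocyte-like cells of the CD45 sort 1 of 23 with enough UMIs was more than 2-fold higher and 1 lower (8.28% and 3.99% of all genes), with a median ratio of -0.11 beside -0.02 over all genes. *Il18rap*, a subunit of the IL-18 receptor, was the lower one, from 40.7 to 16.2 CPM at -1.33 [-2.01, -0.61], and *Txnip*, a binding partner of NLRP3, the higher one at 1.08 [0.46, 1.78]. In monocyte-like cells of the T cell sort *Il18rap* went the other way, from 17.6 to 50.6 CPM at 1.52 [0.12, 3.26]. *Pycard*, the adaptor between NLRP3 and caspase-1, rose by less than 2-fold in those of the CD45 sort, from 337 to 591 CPM at 0.81 [0.61, 1.02]. In T cells of the T cell sort 1 of 19 was higher and 1 lower (4.62% and 1.8% of all genes, median -0.14, all genes 0.04), the higher one being *Il1rl1*, the IL-33 receptor, at 1.49 [0.80, 2.23]. Of 28 genes that IL-1 induces or signals through, 27 were compared in monocyte-like cells of the CD45 sort, with 0 higher and 1 lower. In non-classical monocyte-like cells 0 of 27 were higher and 4 lower, beside 4.32% and 10.8% of all genes. DC2-like cells of that sort had 2 of 24 higher and 2 lower, beside 8.48% and 5.2%. NK cell-like cells had 2 of 22 higher and 2 lower, beside 11.0% and 8.57%. In CD45-sorted T cell-like cells 4 of 22 were higher beside 2.84% of all genes, *Cxcl2* among them with 3.92 [3.45, 4.41] and *Ptgs2* with 3.65 [2.45, 4.87], and 3 of 21 in T cells of the T cell sort beside 4.62%, with *Cxcl2* at 3.63 [2.85, 4.52]. The list medians of these T cells were 0.09 (CD45 sort) and 0.01 (T cell sort), beside 0.07 and 0.04 over all genes. In DC1-like cells 8 of 21 were higher and 0 lower, beside 9.24% and 4.15% of all genes. *Cxcl2* was 5.91 there against the limit of 3 counts, and *Tnf* 4.60 [2.73, 7.66]. *Cxcl2* and *Ptgs2* are among the genes most like *Il1rn* and *Il1b*, and the same macrophage marker sums stand beside them. Of 13 stress genes, which dissociation can induce, 2 were higher in ZsG-positive monocyte-like cells (*Hspa1a* 1.94 and *Hspa1b* 2.13, which were -1.28 and -1.61 in those of the T cell sort), 3 in T cell-like cells and 4 of 12 in DC1-like cells of the CD45 sort, and 1 in T cells of the T cell sort. Their part in the member differences was not tested.

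Between macrophage-like and monocyte-like ZsG-positive cells more of the other IL-1 genes passed 2-fold downward than upward. Of 26 compared in the CD45 sort 2 were more than 2-fold higher and 7 lower (median -0.44, all genes 0.21), beside 17.4% and 4.74% of all genes, and in the T cell sort 1 of 21 was higher and 10 lower (median -1.01, all genes 0.13), beside 19.7% and 8.99%. In both sorts *Il1rap*, the accessory chain of the IL-1 receptor (-1.88 and -2.58), *Il18rap* (-1.89 and -3.52) and *Mefv*, the pyrin sensor (-1.94 and -1.98), were lower, and *P2rx7*, the ATP channel that triggers NLRP3, was higher (1.23 [0.78, 1.72] and 1.2 [0.09, 2.56]). Of the response genes 1 of 28 was higher and 3 lower in the CD45 sort, and 3 of 27 were higher and 9 lower in the T cell sort. *Il6* (-2.34 and -3.34) and *Osm* (-1.81 and -1.32) were lower in both sorts.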

How the data were processed

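Single-cell libraries came from 4 sorted samples. The authors aligned reads to mm10 with Cell Ranger (6.1.2 in the submitters' notes; the header of the CD45 matrix gives 7.0.0) and deposited UMI counts per gene and barcode, both libraries of a sort in 1 matrix. The study's limits decided which cells were kept: between 1000 and 6000 genes and under 10% mitochondrial UMIs in the CD45 sort, between 50 and 6000 genes and under 15% in the T cell sort, with 0.055% CD3 UMIs for T cells. Clusters came from Seurat 5.3.0 (R 4.3.3) on 20 principal components of 2000 variable genes, leaving 92 member and list genes out of the variable genes. A cluster took a class name when at least 3 and at least 50% of its markers were raised; clusters led by *Apod*, mixed with another lineage or with more markers of another class among their top genes stayed unnamed. That naming rule was chosen after the clusters had been seen. The members, gene lists and markers were chosen with earlier results of these data known. Besides the 9 members, the text names from each list of other genes those among the 3 highest and 3 lowest ratios of a comparison, and the 5 genes most like *Il1b*, *Il1rn* and *Il18* among genes of at least 20 CPM over groups of at least 50 cells. Other genes and all clusters named were chosen after their values were seen.

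UMIs were summed per class and gate in Python 3.11.15 with pandas 2.3.3 and numpy 2.4.6, and intervals used scipy 1.17.1. Intervals are exact Poisson for levels, Clopper-Pearson for shares and exact conditional for ratios, at 95%. Ratios needed 20 UMIs over both gates and 20 cells per gate, a side with no UMI was set to 3 counts, and medians added 0.5 to each sum. A ratio against 3 counts is not a 95% bound, which can lie lower. Shares of cells were also computed after thinning to 2000 UMIs. Scrublet, run in scanpy 1.11.5, marked 1, 0, 6 and 11 cells (CD45 ZsG-negative and ZsG-positive, T cell sort ZsG-negative and ZsG-positive), too few in the CD45 sort to have worked, so no doublets were removed. On simulated counts for T cells of the T cell sort (9993 genes), all 191 4-fold changes that could be compared came out past 2-fold in the right direction, 1.17% of unchanged genes passed 2-fold, and 95.7% of intervals held the true value. The counts were Poisson draws, the model behind the intervals, so a coverage near 95% was built in. Spread between cells, clusters or mice was not simulated, so this checks the computation only. TMM factors came from edgeR 4.0.16, and figures from matplotlib 3.10.9.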

Additional observations from a re-analysis of the deposited data

Results flagged for a closer look

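Ratios of opposite sign between classes of the CD45 sort, ZsG-positive over ZsG-negative, stood out for 2 genes, though neither negative value is firm. The log2 ratio of *Il1rn* was 4.32 in T cell-like, 3.24 in DC2-like and 1.91 (against the limit of 3 counts) in DC1-like cells. In non-classical monocyte-like cells it was -1.24 [-2.47, -0.23] on 8 ZsG-positive UMIs, and its sign reversed with listed genes among the variable genes. That of *Il1a* was 2.91 [0.30, 8.27] in DC2-like and -1.96 [-7.30, 0.60] in non-classical monocyte-like cells, where the interval includes 0. The differences between classes were not tested, since each gate is 1 library, and both *Il1a* ratios rest on a side with 1 UMI.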

How the results depend on the processing

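No paired analysis was possible because each group is 1 library, and for the same reason no library could be left out. That 8 of 9 members were highest in monocyte-like or macrophage-like cells held under each alternative run, in both sorts (5% mitochondrial limit, the top 5% of doublet scores left out, totals without mitochondrial and ribosomal protein genes, TMM factors, thinning, 10 principal components, listed genes among the variable genes). The 3 members past 2-fold in T cells of the T cell sort were 5 with no UMI minimum and 1 after thinning (*Il1b*), since *Il1rn* and *Il1r2* then fell under the UMI minimum. The 10 calls in lymphoid and DC classes of the CD45 sort became 18 with no minimum and 16 with mixed clusters returned, an alternative added after seeing the data. The 4 calls in monocyte classes became 2 without non-classical cells, by construction, and 2 after thinning. *Il1rn* in non-classical monocyte-like cells reversed from -1.24 to 0.58 with listed genes among the variable genes; the cause was not tested. Of 587 single-gene values under alternatives, 536 stayed within their interval, 50 moved beyond it and 1 reversed. Depth limits the classes with few cells: ratios in the 26 ZsG-positive non-classical and 22 NK cell-like cells rest on few UMIs.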

Other observations

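An unnamed cluster of the CD45 sort was led by *Apod* and *Cyp7b1* (49 ZsG-positive and 63 ZsG-negative cells). Its best class was pDC, with 8 pDC markers raised, and it stayed unnamed because of *Apod*. There *Il1b* was 12.6 CPM [5.08, 26.0] in the ZsG-negative and 429 CPM [368.1, 497.0] in the ZsG-positive gate, a log2 ratio of 5.09 [4.01, 6.42]. *Casp1* was 52.3 and 67.9 CPM, a ratio of 0.37 [-0.43, 1.17]. The source of the *Il1b* difference was not tested. A cluster led by *C1qa* and *C1qc* that held DC2 and macrophage markers together (226 ZsG-positive cells) had 2163 CPM of *Il1b*, 289 CPM of *Il1rn* and 55.3 CPM of *Il1r2*. Its 229 cells of both gates had a median of 19641 UMIs, and 20.5% lay in the top 5% of doublet scores. The DC2-like cluster led by *Ifitm1* had 11227 UMIs and 2.0%. Whether the mixed cluster holds doublets was not tested.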
